A study of Mus musculus with 2 samples.

Results

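Adherens junctions are the belts of cell adhesion that hold epithelial cells to their neighbours. The 9 genes described here are the cadherins Cdh1 and Cdh3, the nectins Nectin1, Nectin2, Nectin3 and Nectin4, the catenins Ctnna1 and Ctnnd1, and the adhesion molecule Epcam, chosen by name from 32589 genes in the count tables. All 9 were found in both tables. The study concerns the p63 isoform ΔNp63, a transcription factor found in basal layers of stratified epithelia, in the newborn mouse ureter, and it measured RNA in isolated nuclei.

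The DNp63cKO library came from 14 pooled mice of genotype Pax2-cre/+;DNp63fl/fl;R26mTmG/+ at postnatal day 0, in which Pax2-cre, active in the nephric duct lineage that forms the ureter epithelium, deletes the floxed DNp63 alleles, and R26mTmG is a fluorescent reporter of cre activity. The control library came from 13 pooled mice of the same age, labelled wt, and whether they carried cre or R26mTmG is not given in the sources used here. Each genotype has 1 library, so no difference below has a replicate check and none was tested. All intervals are at 95% and cover counting error only, and unequal pools cannot be told apart from unequal genotypes.

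The DNp63cKO library held 5528 nuclei and 9859451 unique molecular identifiers (UMIs, one per captured RNA molecule), and the control library 9062 nuclei and 16063644 UMIs. After filters 5172 DNp63cKO nuclei and 8373 control nuclei were kept and clustered without the 9 genes, and 2219 and 5041 of them were called urothelium-like, urothelium being the epithelial lining. In urothelium-like nuclei the urothelial marker list summed to 25023 CPM for DNp63cKO and 25847 CPM for control, with none of its 22 genes at 0. In these nuclei Trp63 itself was at 139 CPM in the DNp63cKO and at 196 CPM in the control library, and reads from parts of the gene outside the deletion count here too, so this level does not measure the deletion. The 2 libraries shared 58 cell barcodes.

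Cadherins are adhesion molecules that bind their like on the next cell in the presence of calcium, and inside the cell their tails hold catenins. Ctnnd1 encodes p120-catenin, which keeps cadherin at the membrane, and Ctnna1 encodes α-catenin, which links the complex to actin through β-catenin. Nectins are immunoglobulin-like adhesion molecules that need no calcium and prefer partners of another nectin type, and the protein afadin joins them to actin. Cdh1 encodes E-cadherin, the main cadherin of epithelia, and Cdh3 encodes P-cadherin, typical of basal cells in layered epithelia. NECTIN4 is abundant in human urothelium and is the target of an antibody-drug conjugate used in urothelial cancer.

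Promoter sequence is shown for Nectin4, which rose most towards the superficial layer, and for Epcam, a cell-surface member whose RefSeq and GENCODE starts coincide. RefSeq (GRCm38.p6) promoters were examined for 5 of the 9 genes, namely Nectin2, Nectin3, Nectin4, Ctnnd1 and Epcam. This count does not show that RefSeq lacks promoters for all of the other genes. Each window lies before the first annotated transcript start on the plus strand. The Nectin4 window was shortened to 176 bases for this, because its first GENCODE start lies upstream of the RefSeq one, and that of Epcam has 250. Capitals mark CACCTG or its reverse complement CAGGTG, the letters bound by repressors of the Snail and Zeb families.
Nectin4, chr1:171369923-171370098: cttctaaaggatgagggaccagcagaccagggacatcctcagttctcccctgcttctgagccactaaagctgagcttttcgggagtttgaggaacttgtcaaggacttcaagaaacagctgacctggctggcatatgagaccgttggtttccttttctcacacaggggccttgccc
Epcam, chr17:87635729-87635978: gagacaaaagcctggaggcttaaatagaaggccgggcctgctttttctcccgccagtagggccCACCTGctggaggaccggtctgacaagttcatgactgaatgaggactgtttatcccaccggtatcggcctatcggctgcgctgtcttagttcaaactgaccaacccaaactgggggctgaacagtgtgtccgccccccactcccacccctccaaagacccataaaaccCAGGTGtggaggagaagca
The Epcam window held the letters 2 times, beginning 187 and 19 bases before its start. Nectin4 held none, in the printed window or in the full 250 bases before its RefSeq start. Of 32851 RefSeq promoters, 17.2% held CACCTG on either strand in the 250 bases before the start. The letters AACNNGTT, bound by Grainyhead factors, were in neither window and in 3.64% of all promoters. A match is a description of letters and not evidence of binding.

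In urothelium-like nuclei as a whole, 1 of the 9 genes differed between the libraries by a log2 ratio of 0.5 or more, and that was Nectin1, lower in DNp63cKO. Among 14892 genes with 20 or more UMIs in the class, 4.24% were lower by that size in DNp63cKO and 6.09% were higher. The median log2 ratio of the 9 genes was -0.02, and that of all measured genes 0.01. A count of 1 in 9 is near these background shares and is not read as a result about the set, while the ratio of Nectin1 lay among the lowest 0.134% of measured genes. Log2 ratios are of CPM + 5, DNp63cKO over control, where CPM is the number of UMIs of the gene per 1000000 UMIs of that class and library. The added 5 CPM holds the ratios of low genes near 0, so the rank of Nectin1 depends partly on its level. With 1 CPM added instead, 19.3% of all genes were past 0.5 in either direction, against 10.3%, and Nectin1 was at -1.53.

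Cdh1 reached 1034 CPM in the DNp63cKO and 1048 CPM in the control library over all urothelium-like nuclei (log2 ratio -0.02, interval -0.07 to 0.03). The E-cadherin gene was thus at nearly one level in both libraries when all urothelial nuclei were pooled. By layer this was not so. In superficial-like nuclei Cdh1 was at 1279 CPM in DNp63cKO nuclei and at 1666 CPM in control, a log2 ratio of -0.38 (-0.45 to -0.32). In basal-like nuclei it was at 672 CPM in DNp63cKO nuclei and at 613 CPM in control (0.13, -0.01 to 0.28).

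The superficial-like layer is held by different clusters in the 2 libraries, and this bears on every value given for it. It joins cluster 3, with 869 DNp63cKO and 61 control nuclei, and cluster 4, with 220 and 923. A layer name needed a mean log2 fold of 0.3 or more over a fixed list of layer markers, with most of them higher. The fold was taken against the other urothelial clusters. Cluster 3 met this narrowly for superficial markers, at 0.32 with 9 of 13 higher, and cluster 4 had 0.66 with 11 of 13. Within cluster 3 the log2 ratio of Cdh1 was 0.19 (-0.09 to 0.48), and within cluster 4 it was -0.06 (-0.17 to 0.05). Neither cluster alone showed the lower level of the joined layer. In DNp63cKO nuclei Cdh1 was at 1193 CPM in cluster 3 and 1617 CPM in cluster 4, and in control nuclei at 1044 and 1686 CPM.

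Cdh3, the P-cadherin gene, had 38.2 CPM in DNp63cKO and 47.7 CPM in control nuclei of the urothelium (log2 ratio -0.28, -0.59 to -0.05). Without cluster 3 this ratio was 0.32, with the opposite sign. In basal-like nuclei the order was also the other way, 107 CPM in DNp63cKO and 85.5 CPM in control (0.31, -0.06 to 0.70). In superficial-like nuclei both libraries were low, at 10.9 CPM in DNp63cKO nuclei and at 15.0 CPM in control. Basal-like nuclei made up 25.1% of DNp63cKO urothelium-like nuclei (interval 23.3 to 26.9%) and 46.9% of control ones (45.5 to 48.3%). Trp63 is itself among the 13 basal markers, so the layer name is not independent of the genotype, and its part in these shares was not tested. With the layers weighted equally the log2 ratio of Cdh3 was 0.00.

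Cdh1 and Cdh3 lie next to each other on chromosome 8, with 46053 bases between them on mm10 (Cdh3 at 106510891 to 106557297 and Cdh1 at 106603351 to 106670246, both on the plus strand). Their distributions over the layers were opposite. Superficial-like over basal-like, Cdh1 had a log2 ratio of 0.92 in DNp63cKO and 1.43 in control, and Cdh3 had -2.82 in DNp63cKO and -2.18 in control.

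**Figure D1:**
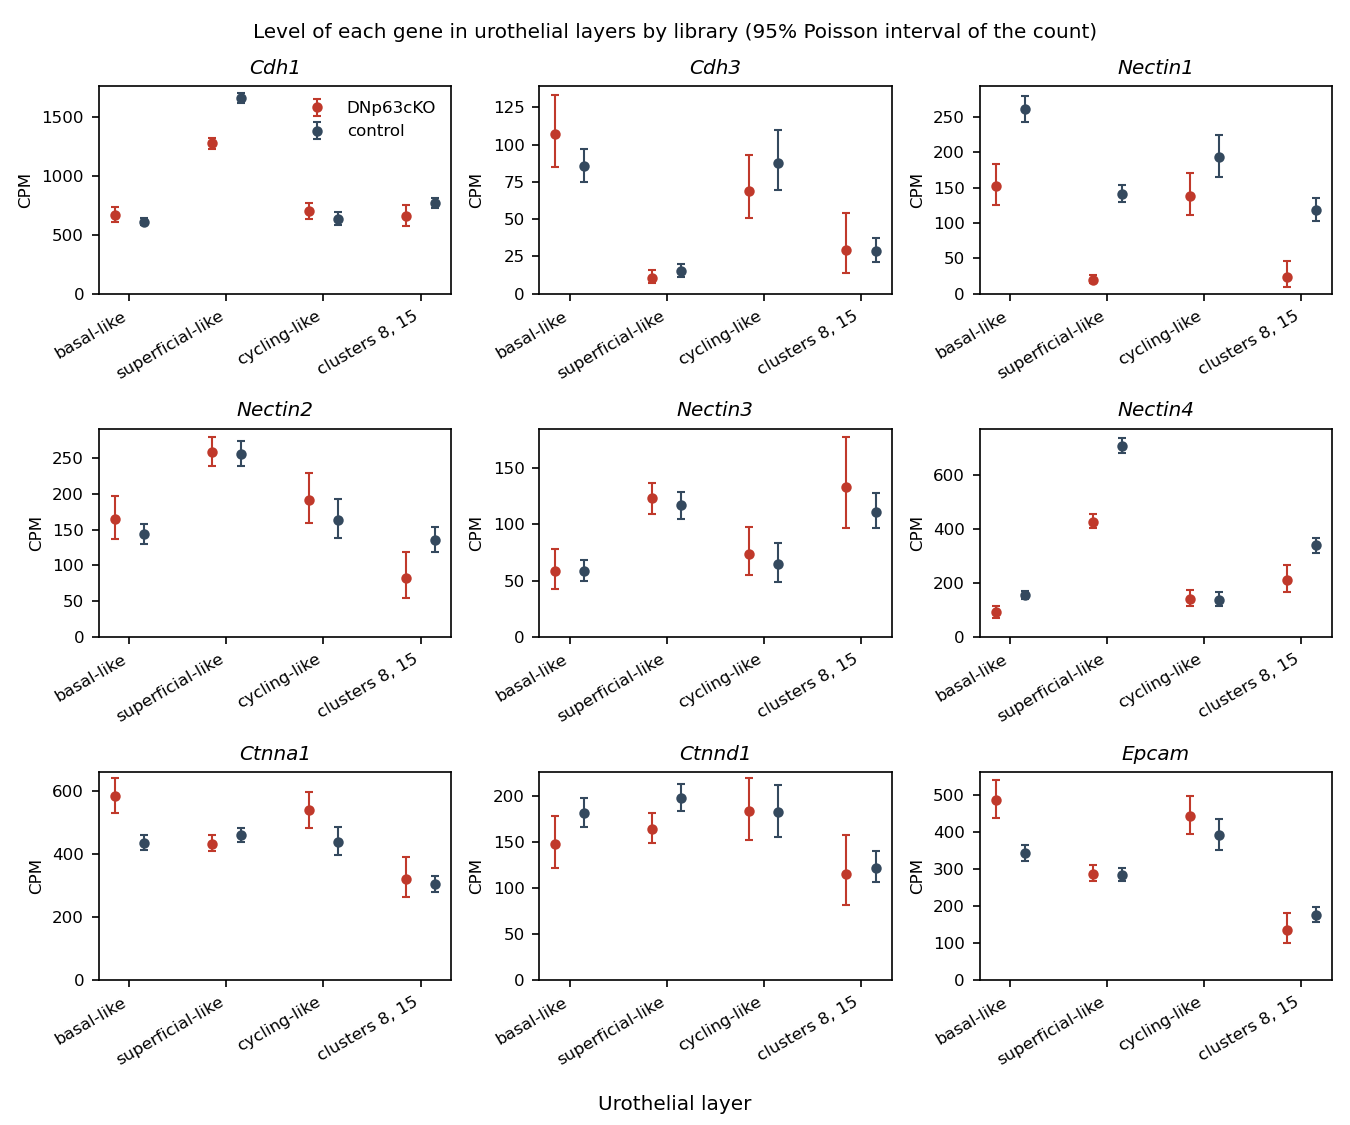
Level in CPM of each of the 9 genes in basal-like, superficial-like and cycling-like urothelial nuclei and in clusters 8 and 15, which carry no layer name, for the DNp63cKO library (red, left of each pair) and the control library (dark, right). Points are summed UMIs and bars are 95% Poisson intervals. Nectin1 in superficial-like nuclei is at 20.1 CPM in DNp63cKO nuclei and at 141 CPM in control, and Nectin4 at 426 and 707 CPM.

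Nectin1 (ENSMUSG00000032012, chromosome 9, 43743984 to 43807461 on mm10, plus strand), an adhesion receptor that pairs with Nectin3 and Nectin4, showed the largest difference of the 9 genes in pooled urothelium. It was at 61.7 CPM in DNp63cKO (260 UMIs) and 180 CPM in control (1615 UMIs), a log2 ratio of -1.47 (-1.74 to -1.36). After every nucleus was thinned to 700 UMIs, 4.57% of DNp63cKO and 12.6% of control urothelium-like nuclei held a Nectin1 UMI, and unthinned the shares were 9.91% and 23.3%, at median depths of 1464 and 1219 UMIs. In fibroblast-like nuclei the thinned shares were 0.559% in DNp63cKO and 3.77% in control, and the unthinned ones 2.44% and 5.88%, at unthinned median depths of 1043 and 817 UMIs.

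The level of Nectin1 was lower in DNp63cKO in 7 of 7 urothelial clusters, with log2 ratios of -3.01 to -0.46, and past 0.5 in size in 6 of them. The share of all measured genes lower by that size was 21.7% in cluster 3, 13.2% in cluster 4, 13.1% in cluster 5, 20.1% in cluster 9, 11.9% in cluster 7, 18.1% in cluster 8 and 33.4% in cluster 15. Nectin1 had 4 DNp63cKO UMIs in each of clusters 8 and 15. Its ratio in cluster 15 was -1.28 (-3.24 to 0.10), with an interval that holds 0. The ratios were -3.01 in cluster 3 (-4.16 to -2.44, on 36 DNp63cKO and 19 control UMIs) and -2.14 in cluster 4 (-3.21 to -1.57, on 14 and 462 UMIs). The superficial-like difference was therefore present within each of its clusters. In the joined superficial-like layer Nectin1 was at 20.1 CPM in DNp63cKO nuclei and at 141 CPM in control (-2.54, -3.26 to -2.39).

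In basal-like nuclei the difference was smaller. Nectin1 was at 152 CPM in DNp63cKO nuclei and at 261 CPM in control, a log2 ratio of -0.76 (-1.08 to -0.49), and 11.0% of measured genes were lower by 0.5 or more there. Once an estimate of free RNA was subtracted, the basal-like ratio was -0.49 and no longer past 0.5. In cycling-like nuclei Nectin1 was at 138 CPM in DNp63cKO nuclei and at 193 CPM in control (-0.46, -0.86 to -0.10). The counting intervals of the superficial-like and basal-like ratios do not overlap, but with 1 library a genotype the difference between layers was not tested.

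The fall of Nectin1 towards the superficial layer was thus unequal in the 2 libraries. Superficial-like over basal-like, the log2 ratio was -2.64 in DNp63cKO (-3.43 to -2.42) and -0.86 in control (-1.05 to -0.72). With free RNA subtracted these were -4.17 in DNp63cKO and -1.11 in control, and the superficial-like ratio between the libraries was -3.55. After subtraction superficial-like Nectin1 was at 7.47 CPM in DNp63cKO nuclei, near the added 5 CPM, and at 141 CPM in control. The -4.17 and -3.55 rest on this small remainder, and the subtraction can overstate carried-over RNA. In clusters 8 and 15, which have no layer name, Nectin1 was at 23.6 CPM in DNp63cKO (8 UMIs) and 118 CPM in control (208 UMIs). A further gene model, Gm30015, overlaps Nectin1 on the other strand, and whether the counting used strand is not given in the sources used here.

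Nectin4 (ENSMUSG00000006411, chromosome 1, 171370099 to 171388598, plus strand) had 306 CPM in DNp63cKO and 399 CPM in control nuclei of the whole urothelium, a ratio of -0.38 (-0.48 to -0.29). In basal-like nuclei it was at 90.8 CPM in DNp63cKO nuclei and at 153 CPM in control (-0.72, -1.15 to -0.38), and with free RNA subtracted at 41.4 and 103 CPM (-1.22). In superficial-like nuclei it was at 426 CPM in DNp63cKO nuclei and at 707 CPM in control (-0.72, -0.84 to -0.63), where 7.46% of measured genes were lower by 0.5 or more. Both layers were thus further apart than the pooled class, in which superficial-like nuclei made up 49.1% of DNp63cKO and 19.5% of control urothelium. Most superficial-like DNp63cKO nuclei, 869 of 1089, were in cluster 3, which met the layer rule narrowly.

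By cluster, Nectin4 was lower in DNp63cKO in 5 of 7 clusters, each past 0.5 in size. The exceptions were cluster 3, with 422 CPM in DNp63cKO and 259 CPM in control (0.69, 0.15 to 1.32, on 27 control UMIs, where 24.9% of measured genes were higher by 0.5 or more), and cycling-like cluster 7, with 140 and 137 CPM (0.03, -0.38 to 0.43). Cluster 4 gave 444 CPM in DNp63cKO and 721 CPM in control (-0.69, -0.90 to -0.50). The direction of Nectin4 was thus opposite in the 2 superficial-like clusters. Among the 5 lower clusters, cluster 15 rested on 1 DNp63cKO UMI against 47 in control (-2.65, -8.21 to -0.33). Cluster 9 rested on 12 against 206. The share of all measured genes lower by 0.5 or more was 13.2% in cluster 4, 13.1% in cluster 5, 18.1% in cluster 8, 20.1% in cluster 9 and 33.4% in cluster 15.

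Without cluster 3 the pooled ratio of Nectin4 was -0.96, and with the layers weighted equally it was -0.61. With nuclei weighted equally, whatever their depth, it was -0.15. The superficial-like over basal-like log2 ratio of Nectin4 was 2.17 in both libraries (1.87 to 2.61 in DNp63cKO and 2.06 to 2.36 in control), the largest rise towards the superficial layer among the 9 genes.

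Nectin2, which also serves as a ligand of immune receptors, had 218 CPM in DNp63cKO and 187 CPM in control nuclei of the urothelium (0.22, 0.10 to 0.34). In superficial-like nuclei the levels were 259 CPM in DNp63cKO and 256 CPM in control. Clusters 8 and 15 were the exception, with 82.6 CPM in DNp63cKO and 136 CPM in control (-0.68, -1.34 to -0.15, on 28 DNp63cKO UMIs), and 16.8% of measured genes were lower by 0.5 or more in them. Gm20512 overlaps Nectin2 on the other strand.

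Nectin3, the usual partner of Nectin1, had 105 CPM in DNp63cKO and 91.7 CPM in control nuclei of the urothelium (0.18, 0.02 to 0.36). The partner genes thus did not share a direction in pooled urothelium, but after thinning to 700 UMIs the ratio of Nectin3 was -0.06, below 0 like that of Nectin1. Nectin3 was at 58.3 CPM in DNp63cKO nuclei and at 58.5 CPM in control basal-like nuclei and at 123 and 117 CPM in superficial-like ones. No layer gave a Nectin3 log2 ratio of 0.5 or more in size.

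**Figure D2:**
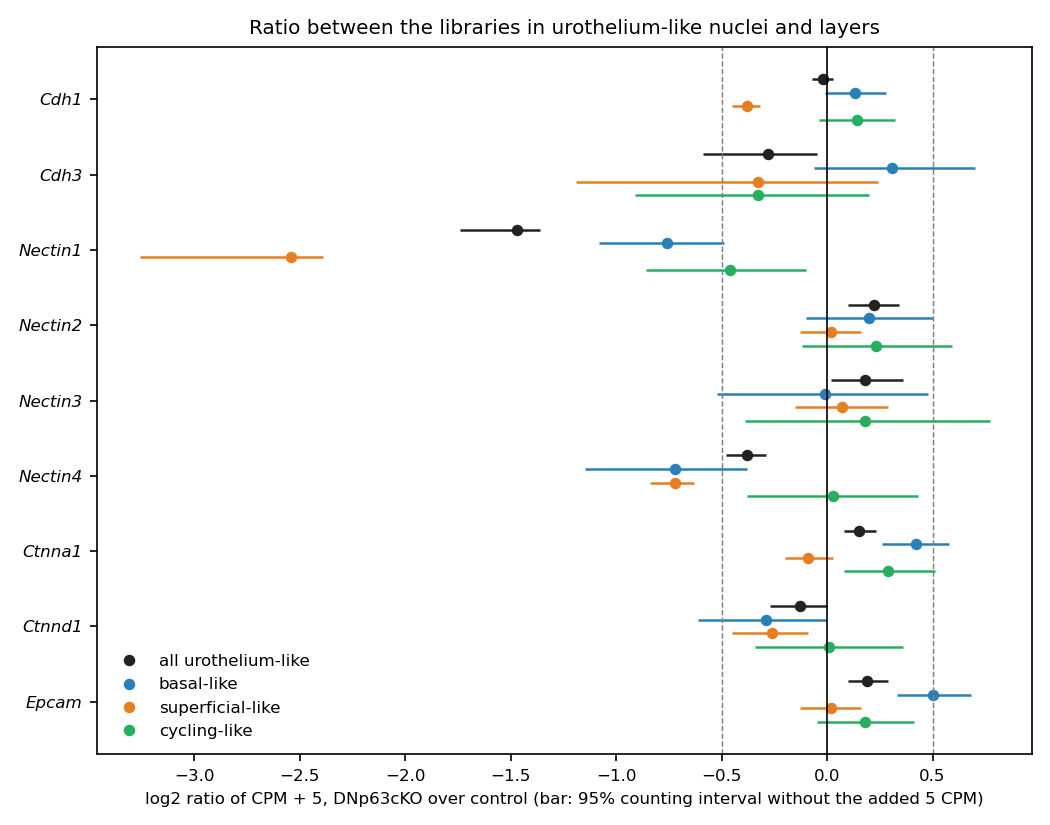
Log2 ratio of CPM + 5, DNp63cKO over control, of each gene in all urothelium-like nuclei and in 3 layers. Points left of 0 are lower in DNp63cKO, dashed lines mark 0.5 in either direction, and bars are 95% counting intervals, which leave out the added 5 CPM and can sit off-centre for low genes. Nectin1 is left of 0 in each of the 4, from -2.54 in superficial-like to -0.46 in cycling-like nuclei.

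Ctnna1, the α-catenin gene, had 466 CPM in DNp63cKO and 418 CPM in control nuclei of the urothelium (0.15, 0.08 to 0.23). In basal-like nuclei it was at 583 CPM in DNp63cKO nuclei and at 434 CPM in control (0.42, 0.26 to 0.58), and in superficial-like nuclei at 432 and 459 CPM (-0.09, -0.20 to 0.03). The ratio was above 0 in 7 of 7 clusters, from 0.03 to 0.40. Lrrtm2 lies inside Ctnna1 on the other strand, so its reads may be part of this level.

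Ctnnd1, the p120-catenin gene, had 160 CPM in DNp63cKO and 176 CPM in control nuclei of the urothelium (-0.13, -0.27 to 0.00). Its ratio was -0.29 in basal-like, -0.26 in superficial-like and 0.01 in cycling-like nuclei. No layer passed 0.5. Its superficial-like over basal-like ratio was small in both libraries, 0.15 in DNp63cKO and 0.12 in control. Gm28635 overlaps it on the same strand, so counting by strand would not separate the pair.

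Epcam (ENSMUSG00000045394, chromosome 17, 87635979 to 87651129, plus strand), an adhesion molecule of simple epithelia and progenitors that is not a cadherin, had 335 CPM in DNp63cKO and 293 CPM in control nuclei of the urothelium (0.19, 0.10 to 0.29). In basal-like nuclei it was at 488 CPM in DNp63cKO nuclei and at 344 CPM in control (0.50, 0.33 to 0.68), a ratio that falls just short of 0.5 before rounding. With free RNA subtracted, the basal-like ratios were 0.77 for Epcam, 0.67 for Ctnna1 and 0.56 for Cdh3. In superficial-like nuclei Epcam was at 288 CPM in DNp63cKO nuclei and at 285 CPM in control.

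Counted by layer, 2 of the 9 genes were lower by 0.5 or more in DNp63cKO in basal-like nuclei, and the same 2, Nectin1 and Nectin4, in superficial-like nuclei. The share of measured genes lower by that size was 11.0% in basal-like and 7.46% in superficial-like nuclei. None of the 9 was higher by that size in either layer, against 10.7% of measured genes in basal-like and 13.6% in superficial-like nuclei. With free RNA subtracted this tally changed. In basal-like nuclei Cdh3, Ctnna1 and Epcam were then higher by 0.5 or more and Nectin4 alone was lower, and in superficial-like nuclei Cdh3 (-0.68, at 0 CPM in DNp63cKO nuclei and 3.02 CPM in control) joined Nectin1 and Nectin4. No share of all genes was computed for the layers after subtraction. In pooled urothelium-like nuclei 14.2% of all genes were past 0.5 with free RNA subtracted, against 10.3% without. The changed tally is therefore not read as a result about the 9 genes. Without subtraction none of the 9 passed 0.5 in either direction in cycling-like nuclei, where 10.4% of measured genes were higher and 11.9% lower. The median log2 ratio of the 9 genes was 0.13 in basal-like, -0.26 in superficial-like and 0.14 in cycling-like nuclei, beside -0.02, 0.08 and -0.02 for all measured genes.

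**Figure D3:**
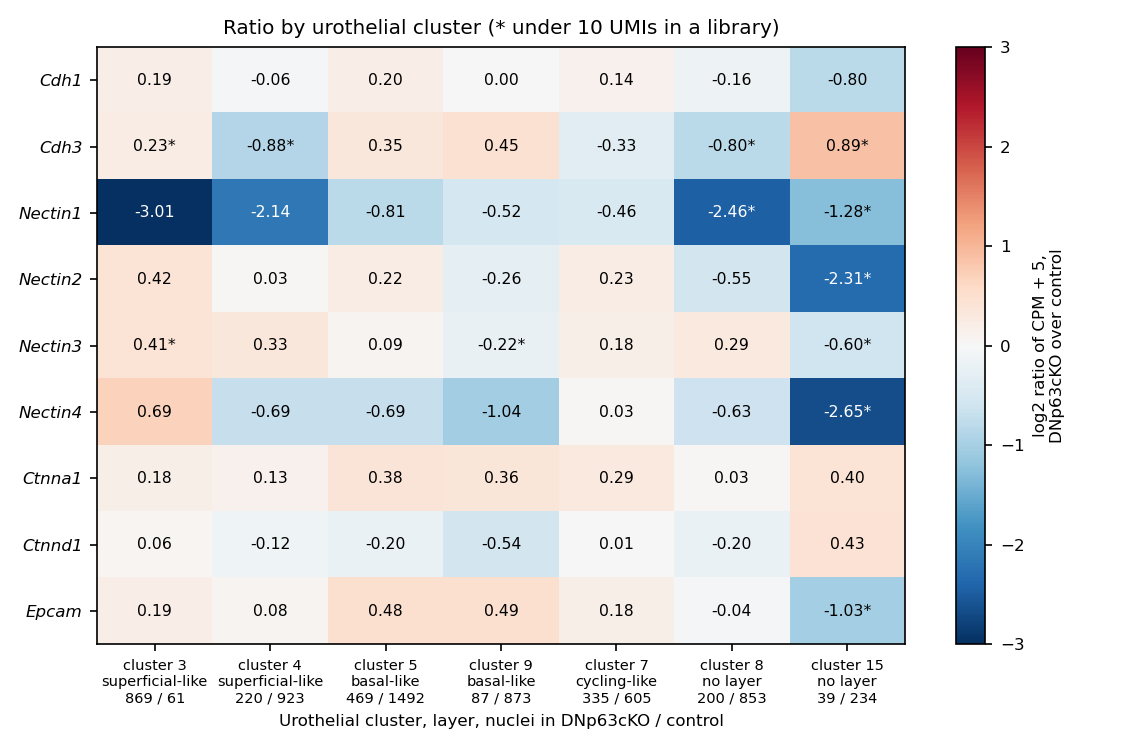
Log2 ratio of CPM + 5, DNp63cKO over control, by gene and urothelial cluster, with the layer and the number of nuclei in each library under each column. Blue is lower and red is higher in DNp63cKO, and a star marks under 10 UMIs in 1 of the libraries. The Nectin1 row is below 0 in 7 of 7 clusters, and the Nectin4 row turns from 0.69 in cluster 3 to -0.69 in cluster 4.

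Beyond the contrast of genotypes, the layers themselves set 6 of the 9 genes apart in both libraries. Cdh1, Nectin2, Nectin3 and Nectin4 were higher in superficial-like than in basal-like nuclei by a log2 ratio of 0.5 or more in both libraries, and Cdh3 and Nectin1 lower. Of 11730 genes measured, 6.68% were higher and 12.6% lower by that size in both libraries. Nectin2 had 0.63 in DNp63cKO and 0.81 in control, and Nectin3 had 1.01 and 0.94. The same 6 genes were found after free RNA was subtracted, for which no share of all genes was computed. The layers were defined by other genes of the same nuclei, so these ratios are a description.

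The remaining 3 genes did not differ between layers by that size in both libraries. Epcam had a superficial-like over basal-like ratio of -0.75 in DNp63cKO and -0.27 in control, and Ctnna1 had -0.43 in DNp63cKO and 0.08 in control. Both ratios were lower in DNp63cKO, where the basal-like levels of these genes were the higher ones. This unequal step between layers was not tested.

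Outside the urothelium the 9 genes were read against RNA carried over from urothelial cells. Uroplakin and other superficial genes that smooth muscle and fibroblasts should lack stood in those classes at 35.1% and 37.9% of their library-wide level in DNp63cKO, and at 26.0% and 29.1% in control. A gene at that same share of its own library-wide level is at the carried-over level. By this measure Cdh1 in fibroblast-like nuclei, at 139 CPM in DNp63cKO nuclei and at 209 CPM in control, was 0.644 and 0.961 times the carried-over level. Nectin4 there was 0.835 times it in DNp63cKO and 0.745 times in control, and Epcam 0.778 and 1.21 times. These levels were near or below the carried-over level and are not evidence of expression in fibroblasts. The measure rests on 6 superficial genes. Cdh1 in DNp63cKO fibroblast-like nuclei lay below it (0.551 to 0.749 times), so it can overstate carried-over RNA.

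Other members stood above the carried-over level in mesenchymal classes. In smooth-muscle-like nuclei Ctnnd1 was at 103 CPM in DNp63cKO nuclei and at 127 CPM in control, 2.31 and 3.13 times the carried-over level. Nectin3 in fibroblast-like nuclei was at 80.7 CPM in DNp63cKO nuclei and at 70.0 CPM in control, 2.51 and 2.96 times it. Cdh3 in smooth-muscle-like nuclei, at 28.9 CPM in DNp63cKO nuclei and at 43.9 CPM in control, was 2.70 and 3.85 times it, while in fibroblast-like nuclei it was 0.570 and 1.55 times.

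In endothelium-like nuclei (284 in DNp63cKO and 315 in control) Nectin2 was at 135 CPM in DNp63cKO nuclei and at 152 CPM in control, 2.09 and 3.49 times the carried-over level. Ctnna1 there was at 270 CPM in DNp63cKO (98 UMIs) and 473 CPM in control (205 UMIs), 1.79 and 4.36 times it. The log2 ratio of Ctnna1 was -0.80 (-1.17 to -0.45), and 14.0% of measured genes were lower by 0.5 or more in this class. The share of superficial genes in the class was 46.3% in DNp63cKO and 29.6% in control, and its part in the ratio was not tested.

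Of the 5 classes with 50 or more nuclei in each library, urothelium-like nuclei had the highest level in both libraries for 7 of the 9 genes. For some of the 7 the order is within counting error. Control Cdh3 was at 47.7 CPM against 43.9 CPM (36.4 to 52.5) in smooth-muscle-like nuclei. Control Ctnnd1 was at 176 CPM against 170 CPM (99.2 to 273) in pericyte-like nuclei. Control intervals also reached the urothelial level for Nectin1 in pericyte-like and Nectin2 in endothelium-like nuclei. The exceptions were Nectin3 and Ctnna1. Nectin3 was at 98.1 CPM in DNp63cKO nuclei and at 100 CPM in control pericyte-like nuclei, on 11 and 10 UMIs, and its order against urothelium-like nuclei is within counting error. Ctnna1 in control endothelium-like nuclei, at 473 CPM (411 to 543), was not separated from control urothelium-like nuclei at 418 CPM beyond its interval.

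Nectin1 outside the urothelium followed the same direction as inside it. In smooth-muscle-like nuclei it was at 13.0 CPM in DNp63cKO (32 UMIs) and 59.7 CPM in control (163 UMIs), a log2 ratio of -1.84. It was 0.908 times the carried-over level in DNp63cKO and 1.64 times in control. The carried-over level itself was 14.3 CPM in DNp63cKO and 36.3 CPM in control, since it follows the library-wide level of the gene. In this class 2 of the 9 genes, Cdh3 and Nectin1, were lower by 0.5 or more, against 5.03% of measured genes, and none was higher, against 5.16%.

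**Figure D4:**
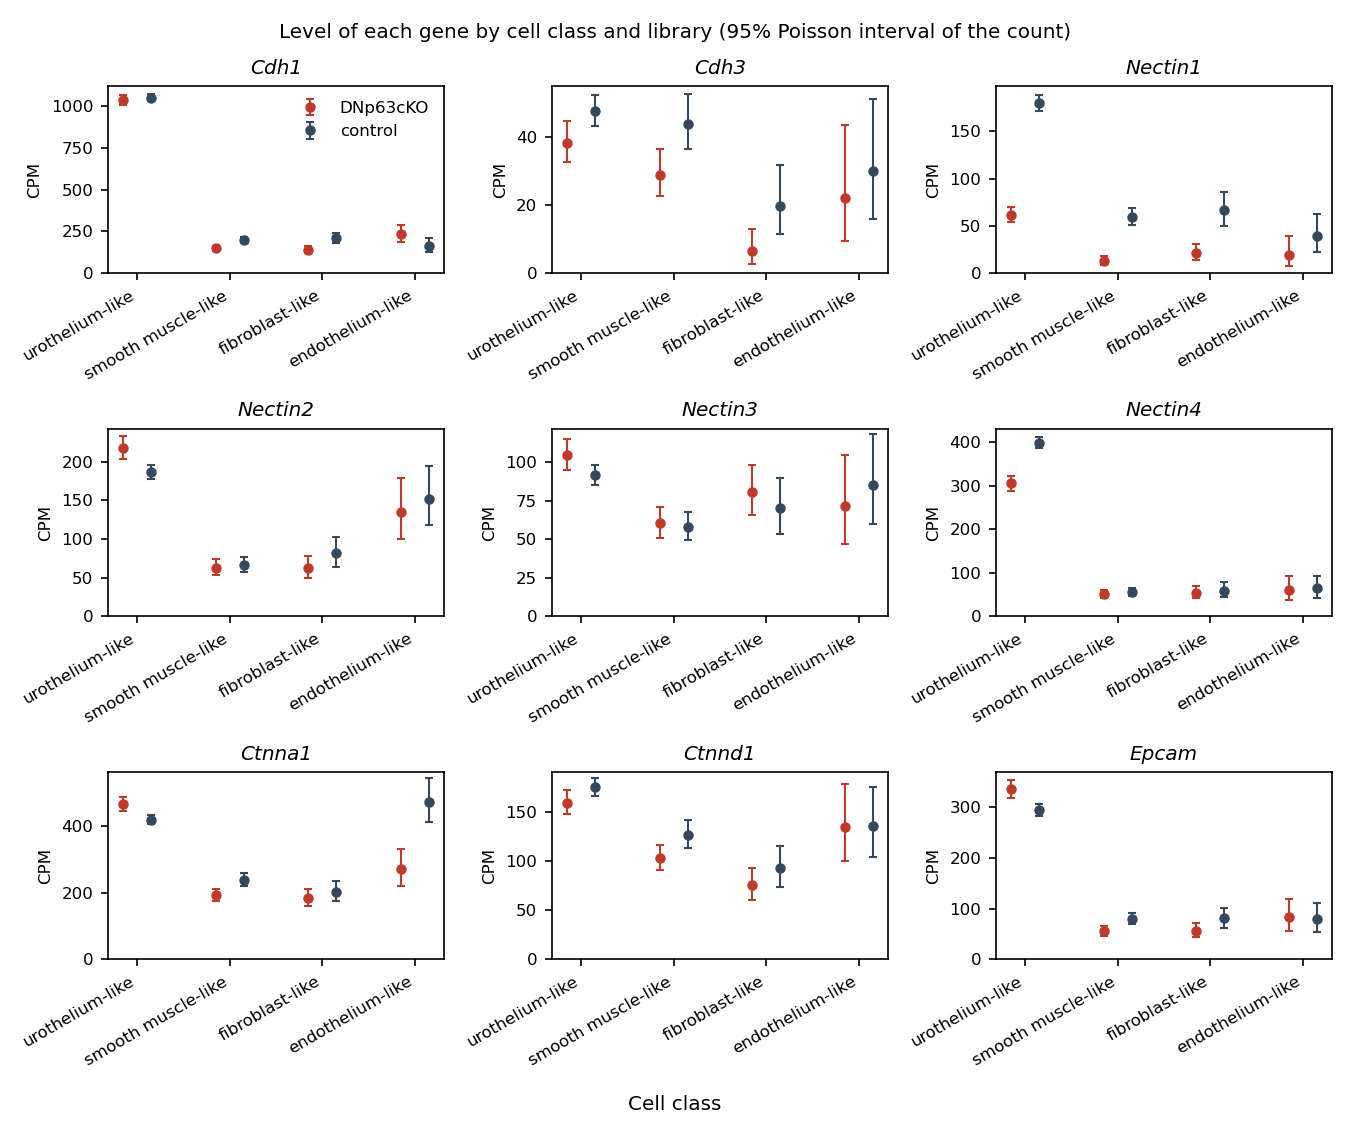
Level in CPM of each gene in urothelium-like, smooth-muscle-like, fibroblast-like and endothelium-like nuclei for the DNp63cKO library (red, left of each pair) and the control library (dark, right), with 95% Poisson intervals. Cdh1, Nectin4 and Epcam are high in urothelium-like nuclei and near or below the carried-over level elsewhere. Epcam in control smooth-muscle-like nuclei is the exception, at 1.36 times that level (1.18 to 1.55). Ctnna1 in control endothelium-like nuclei is at 473 CPM.

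Of 60 other listed adherens junction genes, 55 were measured in urothelium-like nuclei, and 8 were higher and 4 lower by 0.5 or more, with a median log2 ratio of 0.00. Of all 14892 measured genes in the class, 6.09% were higher and 4.24% lower by that size. The difference from these shares was not tested, and the counts by list below are small. Catenins and adaptors gave 3 higher and 3 lower of 22 measured, other cadherins 1 higher of 7, nectin-like genes 1 higher of 4, and repressors and activators of epithelial genes 3 higher and 1 lower of 9. The 6 EpCAM partners and 7 genes of cadherin turnover had none past 0.5.

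The 6 with the largest ratios follow. Cdh16, a kidney cadherin, was at 6.89 CPM in DNp63cKO nuclei and at 0.670 CPM in control (1.07, on 29 and 6 UMIs), a low level in both. Zeb2, a repressor of E-cadherin, was at 70.1 CPM in DNp63cKO nuclei and at 37.1 CPM in control (0.84), and Actn1, an actin cross-linker, at 67.9 and 35.6 CPM (0.84). Beside these, smooth muscle markers in urothelium-like nuclei summed to 1610 CPM in DNp63cKO and 1044 CPM in control and fibroblast markers to 1544 and 948 CPM, with none of the 12 genes of either list at 0. Their part in these ratios was not tested.

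Ovol1, an epithelial transcription factor, was at 54.6 CPM in DNp63cKO nuclei and at 31.4 CPM in control (0.71). Pard3, a polarity protein recruited by nectins, was at 172 CPM in DNp63cKO nuclei and at 283 CPM in control (-0.70), and Arvcf, a relative of p120-catenin, at 19.5 and 33.0 CPM (-0.64). Ctnnb1, which encodes β-catenin, was singled out after its values were seen. It was at 624 CPM in DNp63cKO nuclei and at 929 CPM in control (-0.57, -0.64 to -0.51), with -0.93 in superficial-like and -0.14 in basal-like nuclei.

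The genes most alike to each of the 9 were sought over 30 profiles of cluster by library, which share libraries and depth, among 11714 genes. Nectin4 was most like Krt18 (Pearson r 0.964), Upk3a (0.961) and Akr1b3 (0.955). Nectin1 was most like Mfap3l (0.930), Shh (0.925) and Sdc1 (0.925). Cdh1 was nearest Ermp1 (0.981), Ppl (0.972) and Emp2 (0.970), and Cdh3 nearest Fermt1 (0.829), Sema4b (0.810) and Edaradd (0.808).

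Epcam was most like Krt19 (0.961), Mgst3 (0.960) and Wfdc2 (0.948), Nectin2 like Adgrg1 (0.898) and Vsig2 (0.896), and Nectin3 like Lurap1l (0.892) and 9530014B07Rik (0.829). Ctnna1 was nearest Aplp2 (0.961), Kctd12b (0.899) and Mgst3 (0.878), and Ctnnd1 nearest Ube2z (0.841), Asns (0.820) and Actn4 (0.816). Among the 9 genes themselves r was highest between Cdh1 and Nectin4 (0.908) and lowest between Cdh3 and Nectin3 (-0.576). The coefficients describe these profiles and carry no test.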

How the data were processed

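The deposited tables hold raw UMI counts of every gene in every nucleus, as whole numbers. Per the submitters' processing notes, the build was mm10 and the tools included STARsolo with STAR 2.7.11a and, in R 4.0.5, Seurat 4.0.5, with no roles given. Which annotation was used, and whether introns were counted, is not given here. Of 32589 gene IDs, 32445 were in GENCODE M21, which gave coordinates.

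A nucleus passed with at least 300 genes and no more than 5% mitochondrial UMIs, which left 5491 in DNp63cKO and 8889 in control. Scrublet called 0 doublets and so had not worked. The top 5% by score were removed instead (319 and 516 nuclei). Clustering used scanpy 1.11.5 with 2000 variable genes, 30 components, 15 neighbours and Leiden resolution 1. The 9 genes and the other listed junction genes were left out of the variable genes, so that no cluster was defined by them.

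Clusters were named by the mean over a class's markers of log2(CPM + 5) minus its mean over clusters, with 3 or more markers at 50 CPM and a score above 0.1. This score replaced a fold against all other nuclei after the data were seen, because that fold left 2 urothelial clusters and 1 muscle cluster unnamed. Cluster 2 (303 DNp63cKO and 588 control nuclei) stayed unnamed, since haemoglobin genes and 2 smooth muscle markers were together among its 10 leading genes. A name differing from the study's may come from this rebuilding.

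UMIs were summed per class and library, so deeper nuclei weigh more. Intervals are Poisson for CPM, conditional binomial for ratios and Clopper-Pearson for shares. Thinning to 700 UMIs left out 164 DNp63cKO and 882 control urothelium-like nuclei, and 226 and 287 fibroblast-like ones. The free RNA subtracted was each library's profile at the fibroblast-like share, 37.9% in DNp63cKO and 29.1% in control. That share may be too high for some genes. The ratio was also computed on simulated Poisson counts. These hold no variation between pools or nuclei, so they check the arithmetic only.

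All 9 genes are named. Of the other listed genes past 0.5, the 6 largest are named, with the 3 genes most alike to each member, of which some are not reported here. The members and lists were chosen with earlier results of these data known.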

Additional observations from a re-analysis of the deposited data

Results flagged for a closer look

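Epcam and Ctnna1 moved one way in urothelium-like nuclei and the other way in another class, with counting intervals on either side of 0. The log2 ratio of Ctnna1, DNp63cKO over control, was 0.15 in urothelium-like nuclei, -0.30 in smooth-muscle-like nuclei and -0.80 in endothelium-like nuclei. That of Epcam was 0.19 in urothelium-like nuclei and -0.49 in both smooth-muscle-like and fibroblast-like nuclei. The difference between classes was not tested, since each genotype has 1 library. Epcam outside the urothelium was at 0.778 to 1.36 times the level expected of carried-over RNA in those 2 classes.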

How the results depend on the processing

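No paired analysis was possible because each genotype has 1 library. For the same reason no replicate could be left out. The count of 1 gene past 0.5 in urothelium-like nuclei became 2 after thinning to 700 UMIs (Cdh3 and Nectin1, with 16.0% of all genes past 0.5), 2 without cluster 3 (Nectin1 and Nectin4, with 13.4%), and 2 with equal weight of the layers (the same pair, with 10.4%), an alternative chosen after seeing the data. Nectin1 was lower and past 0.5 under all 15 alternatives, from -1.54 to -0.81, the last without cluster 3. Nectin4 was below 0 in all 15, from -0.96 to -0.15. Cdh3 ran from -0.73 to 0.32 and Cdh1 from -0.23 to 0.19, so neither kept its sign. Nectin2, from -0.03 to 0.38, and Nectin3, from -0.06 to 0.39, were each below 0 in 1 alternative. The median of the 9 genes, -0.02, became 0.15 as a mean over nuclei, -0.11 with 1000 or more UMIs per nucleus and 0.17 with free RNA subtracted; the cause was not tested. Urothelium-like nuclei were highest for 7 genes, against 5 at Leiden resolution 0.5 and 6 after thinning, and neither alternative kept Cdh3 or Ctnnd1. Depth limits Cdh3 most, with 161 DNp63cKO UMIs in the class.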
